A study of Populus alba x Populus glandulosa with 9 samples.

Results

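Along the stem of 84K poplar, 14 genes of the 85755 in the deposited tables were lowest in the middle internodes and higher on both sides by a set margin. They were chosen by their FPKM values in all 9 libraries, as the genes whose lowest value over the 6 top and bottom libraries was at least 2 FPKM and at least 1.5 times the value of the highest middle library. FPKM is the authors' expression value, scaled to gene length and library total. Without the margin of 1.5 times, 689 genes at 2 FPKM or more in those 6 libraries had every middle library below every top and bottom library. The 84K tree, a poplar much used in the laboratory, is a cross of Populus alba with Populus glandulosa. The plants were wild type and had reached an age of 6 months and a height of about 200 cm. Their stems were sampled near the top at internodes 2 to 3, in the middle at internodes 9 to 10 and near the bottom at internodes 14 to 15, with 3 libraries per position. All plants were propagated from cuttings of this 1 cultivar in rooting medium and then grown under natural conditions. Whether the 3 libraries of a position come from separate plants is not stated in the labels; p-values therefore rest on a spread between libraries that may be technical in part.

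As background, the upper internodes of a poplar stem are still elongating and consist largely of primary tissues. Further down, the vascular cambium adds secondary xylem and phloem, and the walls of the xylem cells thicken and lignify. The labels name the tissue only as stem and mention no separation of bark, cambium and wood, so fewer cells of a type and less RNA per cell cannot be told apart. The files do not pair the identifiers with gene names, so no function is given for any of the 14 genes and the stem tissues were not checked against marker genes. Genes are called by their identifiers, in which the letter A or G and a number code follow the prefix.

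Total counts were 41434042 to 75217046 per library, and top library 2 was the deepest. Each read pair appears to stand for 2 counts, since every entry of the count table was even. The scaling factors for composition lay between 0.9606 and 1.0521 by the TMM method, so the FPKM values of the 9 libraries differed little in scale.

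The 14 genes were a small set beside those that were lowest at an end of the stem. The same rule, with the role of the middle given to the top, took 1420 genes, and with that role given to the bottom it took 601. The mirror rule took 17 genes that were highest in the middle, against 1485 highest in the top and 14 highest in the bottom. All 14 genes had a mean of at least 2.55 FPKM at both ends and passed the filter on low counts. Every value of this dip was used to choose the genes, so its size is a description and not a test. Leaving out a library relaxes the rule: 35 genes met it when top library 2 was left out and 27 when bottom library 2 was. Leaving out middle library 1, 2 or 3 gave 33, 27 or 28 genes. All 14 genes were among those in each of these cases, which a relaxed rule makes certain.

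Over the 14 genes, the mean of the top was 1.94 to 101.4 times that of the middle, with a median of 7.07. The mean of the bottom was 1.90 to 87.9 times that of the middle, with a median of 7.71. The dip was at least 10-fold on both sides in 5 genes and at least 5-fold in 8. Summed over the 14 genes, the libraries held 841, 192 and 796 FPKM at the top, 48.1, 53.2 and 63.7 FPKM at mid-stem, and 778, 205 and 601 FPKM at the bottom. The middle sums are close to each other, while the sums of top library 2 and bottom library 2 lie far below those of the other libraries of their position. Such sums weigh the most abundant genes most. Gene by gene, the coefficient of variation (SD over mean) in the middle ran from 6.70% to 87.9%.

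**Figure D1:**
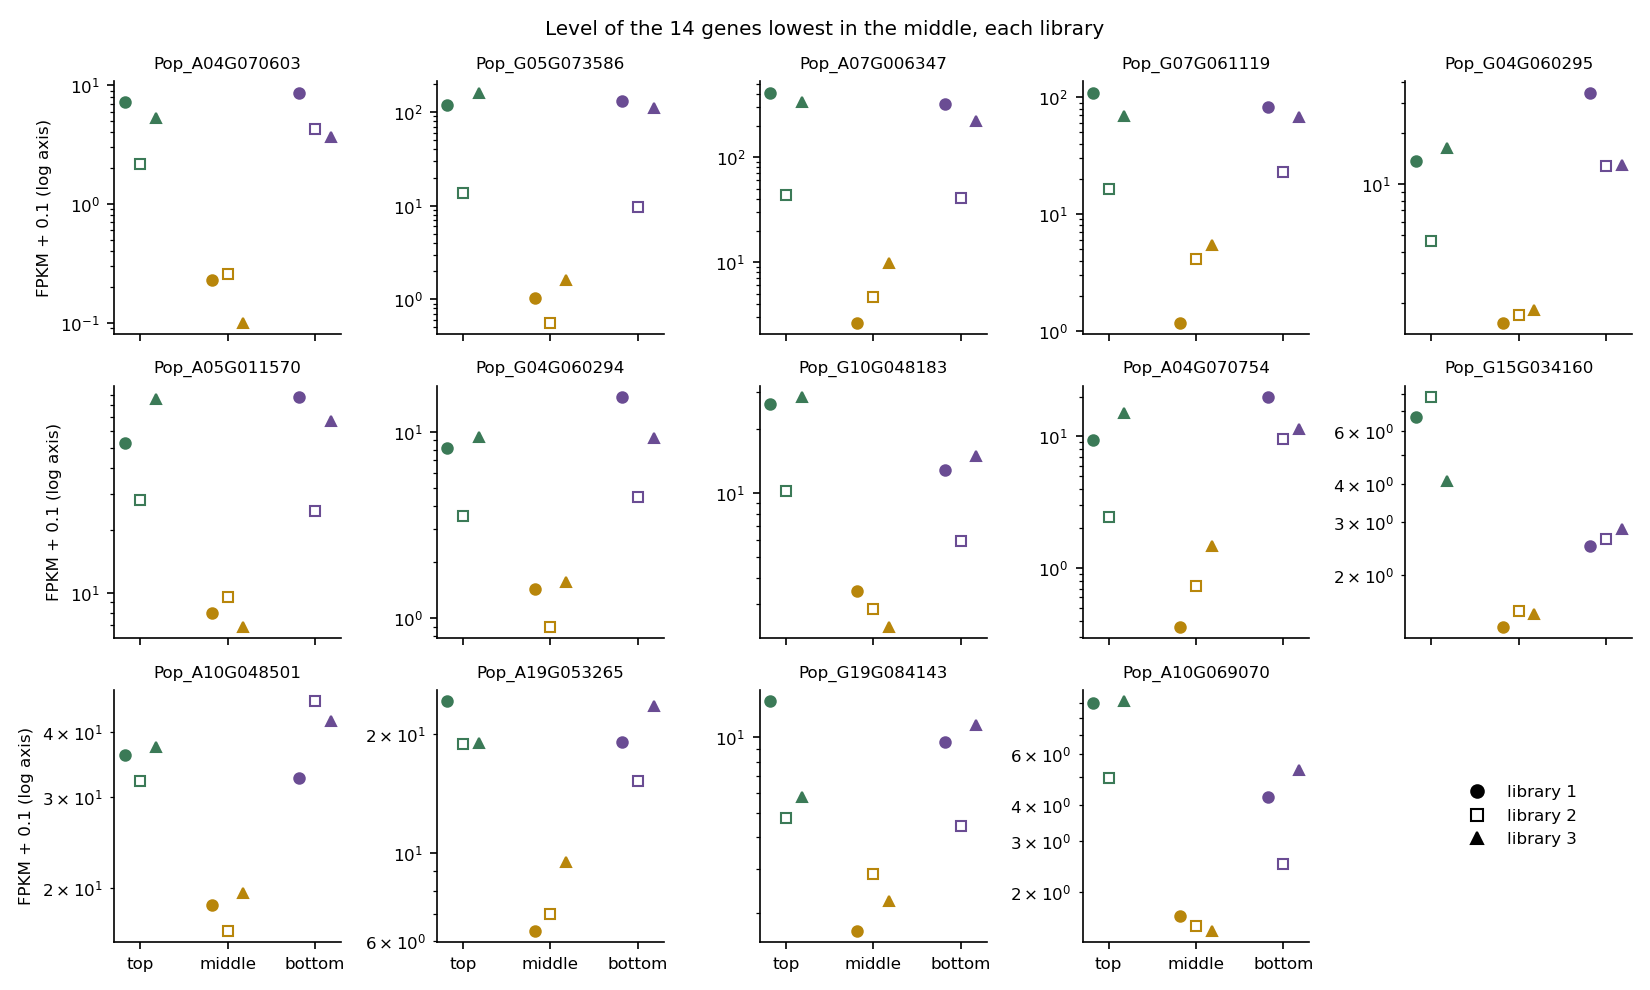
Level of each of the 14 genes in FPKM plus 0.1 on a log axis, 1 point per library, by position along the stem; open squares are the libraries numbered 2. In every panel the 3 middle libraries lie below the 6 top and bottom libraries, and the open squares are lowest within the top in 13 panels and within the bottom in 11.

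The gene with the largest mean fold was Pop_G05G073586. It had 118, 13.5 and 160.0 FPKM in top libraries 1, 2 and 3, then 0.92, 0.46 and 1.49 FPKM at mid-stem, and 131, 9.53 and 112 FPKM at the bottom. The top and bottom ranges overlap widely, and within each of them library 2 was by far the lowest. Means and SDs (n = 3) were 97.1 ± 75.4 FPKM for the top, 0.96 ± 0.51 for the middle and 84.2 ± 65.4 for the bottom. By mean FPKM this gene stood at percentile 97.9 of the 52436 genes tested in the top, at 14.3 at mid-stem, and at 97.8 at the bottom. Its 3 middle libraries held 58 read pairs in all, and the pooled ratio of both ends to the middle was 90.8 (exact 95% interval 70.2 to 119.6, counting error only).

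Pop_A07G006347 was the most abundant of the 14. Its levels were 408, 43.4 and 333 FPKM at the top, 2.56, 4.52 and 9.69 FPKM at mid-stem, and 318, 41.1 and 219 FPKM at the bottom. It went from percentile 99.6 of the genes tested in the top to 47.1 at mid-stem, and back to 99.4 at the bottom. Pop_G07G061119, which has the same number code and the other letter, had 109, 16.2 and 69.1 FPKM at the top, 1.08, 4.02 and 5.30 at mid-stem, and 82.6, 22.8 and 67.1 at the bottom. Both genes share the order of the libraries: library 1 was highest at both ends and lowest in the middle, and library 2 was lowest at both ends. Their implied lengths differ, at 229 and 1019 bases, taking the ratio of counts to FPKM as the length.

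The ratio of the lowest end library to the highest middle library was largest in Pop_A04G070603, at 13.0. This gene had 7.14, 2.07 and 5.17 FPKM at the top, 0.13, 0.16 and 0 FPKM at mid-stem, and 8.51, 4.18 and 3.59 FPKM at the bottom. Its middle values rest on 1 read pair each in libraries 1 and 2 and on 0 in library 3. For a gene of this length, 0 read pairs in that library allow a level of up to 0.51 FPKM (3 read pairs, counting error only). The pooled ratio of both ends to the middle was therefore wide in its error, at 48.6 (exact 95% interval 13.3 to 404).

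The last gene with at least a 10-fold dip was Pop_A04G070754. It had 9.30, 2.35 and 14.9 FPKM at the top, 0.26, 0.64 and 1.37 FPKM at mid-stem, and 19.7, 9.46 and 11.3 FPKM at the bottom. Its middle libraries held 14 read pairs, and its pooled ratio was 15.0 (exact 95% interval 8.87 to 27.7, counting error only). The top libraries of this gene span both sides of the lowest bottom library, so the ends overlap.

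In 3 further genes, the dip was at least 5-fold on both sides. Pop_A05G011570 had 52.4, 27.9 and 85.2 FPKM at the top, 7.95, 9.42 and 6.78 at mid-stem, and 87.4, 24.7 and 66.8 at the bottom. With 718 read pairs in its middle libraries, its level there was measured closely, at 8.05 ± 1.32 FPKM (SD, n = 3), while the ends varied more. Pop_G04G060295 had 13.6, 4.52 and 16.3 FPKM at the top, 1.43, 1.59 and 1.71 at mid-stem, and 34.4, 12.8 and 12.9 at the bottom. Pop_G04G060294, in the adjacent row of the deposited table and with the next lower identifier, had 8.07, 3.44 and 9.20 FPKM at the top, 1.34, 0.80 and 1.46 at mid-stem, and 15.2, 4.38 and 9.19 at the bottom. In both of these neighbours bottom library 1 was the highest of the 9 libraries and top library 2 was the lowest of the 6 end libraries. Overlapping genes and reads shared between near-identical copies could not be examined, so the levels of such neighbours may not be separate measurements.

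The other 6 genes had shallower dips on at least 1 side. Relative to its mean, Pop_A10G048501 showed the least spread among all 14 at the top. It had 35.9, 32.1 and 37.4 FPKM there, 18.4, 16.4 and 19.4 at mid-stem, and 32.4, 45.7 and 41.9 at the bottom. Its dip was among the smallest, 1.94-fold against the top and 2.22-fold against the bottom. Its coefficient of variation was 7.84% at the top, 8.54% at mid-stem and 17.2% at the bottom. Pop_A19G053265 had 24.1, 18.8 and 18.9 FPKM at the top, 6.25, 6.93 and 9.40 at mid-stem, and 19.1, 15.2 and 23.5 at the bottom. Pop_G19G084143, with the same number code and the other letter, had 13.8, 4.66 and 5.68 FPKM at the top, 1.60, 2.75 and 2.14 at mid-stem, and 9.50, 4.35 and 11.1 at the bottom. The bottom means of these 3 genes were 93.4% to 114% of their top means.

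The remaining 3 genes had bottom means of 42.0% to 51.6% of their top means. Pop_G10G048183 had 26.3, 10.2 and 28.3 FPKM at the top, 3.36, 2.74 and 2.25 at mid-stem, and 12.7, 5.88 and 14.8 at the bottom, so that the bottom libraries overlapped the top ones only through top library 2. Pop_G15G034160 had 6.57, 7.69 and 3.99 FPKM at the top, 1.24, 1.41 and 1.38 at mid-stem, and 2.39, 2.53 and 2.74 at the bottom, where its libraries lay close together. Pop_A10G069070 had 8.88, 4.85 and 9.02 FPKM at the top, 1.56, 1.43 and 1.37 at mid-stem, and 4.15, 2.41 and 5.18 at the bottom. The last of these was also the gene nearest the threshold of the rule.

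**Figure D2:**
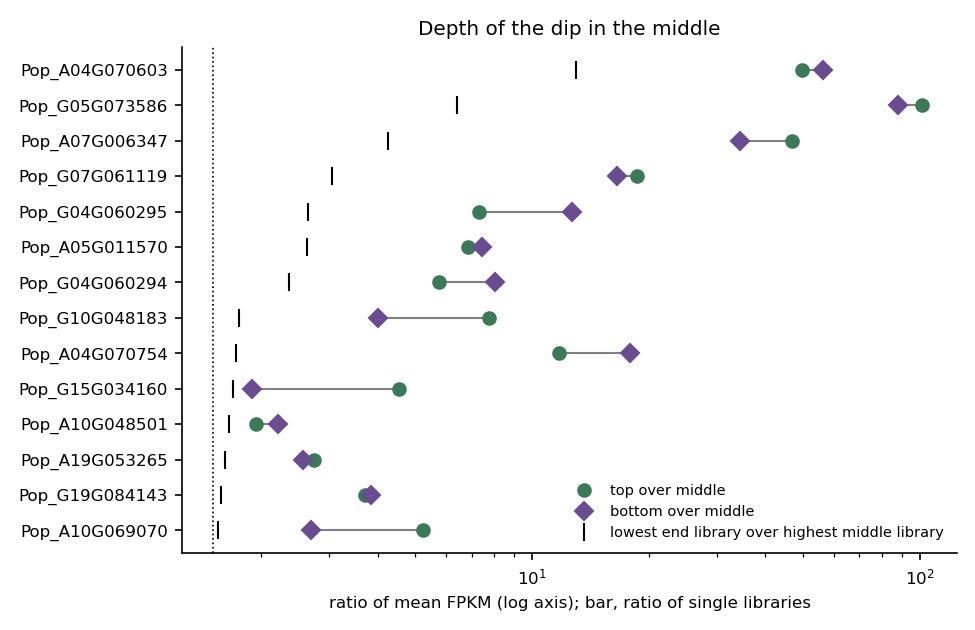
Ratio of the mean FPKM of the top (circles) and of the bottom (diamonds) to the mean of the middle for each gene, on a log axis; the vertical ticks give the ratio of the lowest end library to the highest middle library, which the rule required to be at least 1.5 (dotted line). The mean folds run from 1.90 to 101.4, and the ticks from 1.54 to 13.0.

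The 2 genes just inside the fold of 1.5 had ratios of 1.54 and 1.58, with a lowest end library of 2.41 and 4.35 FPKM against a highest middle library of 1.56 and 2.75 FPKM. The 2 genes just outside it had ratios of 1.45 and 1.43, with 10.04 against 6.95 FPKM and 4.94 against 3.46 FPKM. At the floor of 2 FPKM, the lowest end libraries of the 2 nearest genes inside were at 2.07 and 2.35 FPKM, and those of the 2 nearest outside at 1.86 and 1.83 FPKM.

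In edgeR's quasi-likelihood test over all genes, all 14 were called lower in the middle than in the top at an adjusted p under 0.05, where 10.4% of the genes tested were called lower. From middle to bottom, 6 of the 14 were called higher, where 0.0153% of the genes tested, 8 in all, were called higher. DESeq2 called 13 of the 14 higher in this step, where it called 0.213% of the genes with an adjusted p higher. Same-numbered top and middle libraries deviated together over all genes, and with the replicate number as a block 13 of the 14 were called lower in the middle, where 9.25% of the genes tested were. The rule used both of these contrasts, so nothing is read from the counts. The median fitted log2 fold change of the 14 genes was -2.83 for the first step, against 0.01 over all genes tested, and 2.90 for the second, against 0.04. Without replicate number 3 in all positions, 0 of the 14 were called in either step, where 115 of all genes were called lower in the first and 0 higher in the second. Without number 1 the counts were 5 and 0 of the 14, where 2393 and 1 of all genes were called. Without number 2, whose top and bottom libraries were low in most of these genes, they were 13 and 4 of the 14, where 1901 and 9 of all genes were called. The median fold changes of the 14 in these fits were -3.27 to -2.50 for the first step and 2.42 to 3.22 for the second. The 6 calls of the second step became 0 without any 1 of the bottom libraries, where 0 of all genes were called higher. They became 1 without top library 3 or middle library 1 or 2, where 2, 1 and 3 of all genes were called higher, and 3 without middle library 3, where 4 were. With 1 library left out, the median fold change of the 14 in this step lay between 2.44 and 3.25.

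The rule treats the top and the bottom alike, so it did not set the direction of the comparison between them. It did limit how far 1 end can lie below the other, since every end library had to reach the same minimum. The median absolute log2 change between top and bottom was 0.34 in the 14 genes, against 0.49 over all genes tested. Shares of genes called in this comparison are therefore not free of the rule. The comparison asks whether the level of these genes after the dip differs from that before it. In edgeR's test 0 of the 14 genes were called higher in the bottom than in the top, where 12.1% of the genes tested were, and 2 were called lower, where 15.1% were. The 2 genes are 14.3% of the 14, which is near the 15.1% called lower over all genes tested. Calls depend on the spread within a position as well as on the size of a change, and the spread of the 14 is given below. Without adjustment, at p under 0.05, the counts were 0 higher and 3 lower, where 19.0% of the genes tested were higher and 21.9% lower at that threshold. DESeq2 called 0 higher and the same 2 lower, where it called 17.2% of the genes with an adjusted p higher and 19.0% lower. The bottom mean was above the top mean in 7 genes and below it in 7.

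Pop_G15G034160 fell from a top mean of 6.08 ± 1.90 FPKM to a bottom mean of 2.55 ± 0.17 (SD, n = 3), a fitted log2 change of -1.33 (standard error 0.35, edgeR adjusted p = 0.0229). Each of its bottom libraries was below each of its top libraries. It was the only gene of the 14 whose top and bottom libraries did not overlap, whereas 46.8% of all genes tested had no overlap between these positions. Overlap depends on the spread within a position as well as on the means. The median coefficient of variation of the 14 was 52.7% in the top and 45.9% in the bottom, against 20.3% and 15.9% over all genes tested. Pop_A10G069070 fell from 7.58 ± 2.37 to 3.91 ± 1.40 FPKM (SD, n = 3), a fitted log2 change of -1.03 (standard error 0.30, edgeR adjusted p = 0.0339). Its highest bottom library lay above its lowest top library. Over all alternatives tried, DESeq2 and limma included, the adjusted p ranged from 0.00112 to 0.173 for Pop_G15G034160 and from 0.00957 to 0.176 for Pop_A10G069070. The 2 calls became 0 without top library 1, bottom library 1 or bottom library 2, and 1 without top library 3, middle library 3 or bottom library 3. Without top library 2 the count was again 2, but it held 1 of these genes, Pop_A10G069070, and not Pop_G15G034160. With 1 library left out, the fitted log2 change was -1.55 to -1.11 in Pop_G15G034160 and -1.26 to -0.78 in Pop_A10G069070, and 8.3% to 15.5% of all genes were called lower.

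For the other 12 genes, the fitted log2 fold change from top to bottom lay between -1.02 and 0.75, with adjusted p-values of 0.0968 to 0.973 in edgeR. The standard errors in this group ran from 0.15 in Pop_A10G048501 to 0.95 in Pop_G05G073586. A difference of 2-fold could therefore not be told from no difference in the genes with the largest standard errors. The largest fitted rise, of 0.75 with a standard error of 0.52, was that of Pop_G04G060295, and its adjusted p was 0.314 in edgeR. The lowest fitted change among the uncalled genes, -1.02 with a standard error of 0.42, was that of Pop_G10G048183, with an edgeR adjusted p of 0.0968.

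**Figure D3:**
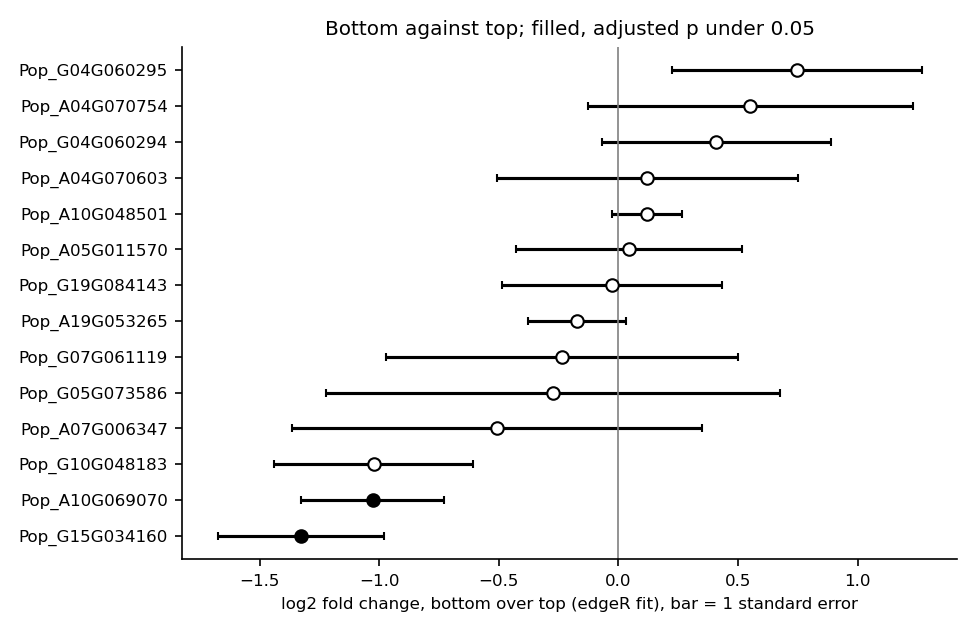
Fitted log2 fold change of bottom over top for the 14 genes with 1 standard error from edgeR's model; filled points have an adjusted p under 0.05 over all genes tested. The 2 filled points lie at -1.33 and -1.03, and the 12 open points lie between -1.02 and 0.75.

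At both ends of the stem, the 14 genes varied more between libraries of 1 position than most genes did. Their median coefficient of variation was 52.7% in the top and 45.9% in the bottom, against 14.5% and 11.6% over the 33987 genes with at least 2 FPKM in all top and bottom libraries. In the middle it was 24.3% against 15.1%, with fewer read pairs behind each value. The rule did not use which library of a position was lowest. Top library 2 was the lowest top library in 13 of the 14 genes, against 35.5% of the 33987 genes. Bottom library 2 was the lowest bottom library in 11 of the 14, against 43.2%. Both held together in 11 of the 14 genes (78.6%), against 13.8% of the 33987.

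The size of this difference varied among the 14. Top library 2 was at 0.0974 to 1.46 times the mean of top libraries 1 and 3, with a median of 0.385, and bottom library 2 at 0.0784 to 1.23 times, with a median of 0.472. Over the 33987 genes these ratios had medians of 0.971 and 0.956, and their 5th percentiles were 0.595 and 0.667. In the middle the same ratio of the 14 genes was 0.384 to 2.45, and library 2 was lowest in 3 of the 14, against 48.7% of the 33987 genes. Both ratios were lowest in Pop_G05G073586 and next lowest in Pop_A07G006347, which are also the 2 most abundant of the 14. The labels do not say what libraries with the same number share, and the part of plant, day or preparation in these values was not tested.

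Library 2 was at most 0.5 times each of the other libraries in both the top and the bottom in 25 of the 33987 genes, or 0.0736%. The 14 genes held 5 of these, which is 35.7% of the 14 and 20% of the 25. Over all 52436 genes tested, which include genes under 2 FPKM, 362 had this stricter pattern, or 0.690%, and the same 5 genes were 1.38% of them. Of the 25 genes, 14 had a middle mean below the means of both ends, and in 7, among them the 5 chosen by the rule, every middle library lay below every end library. That last property was found in 2.03% of the 33987 genes. The rule itself gave it to the 5, and the library 2 pattern was described after the values of the 14 genes were seen. Nothing is therefore read from the 7 of the 25.

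**Figure D4:**
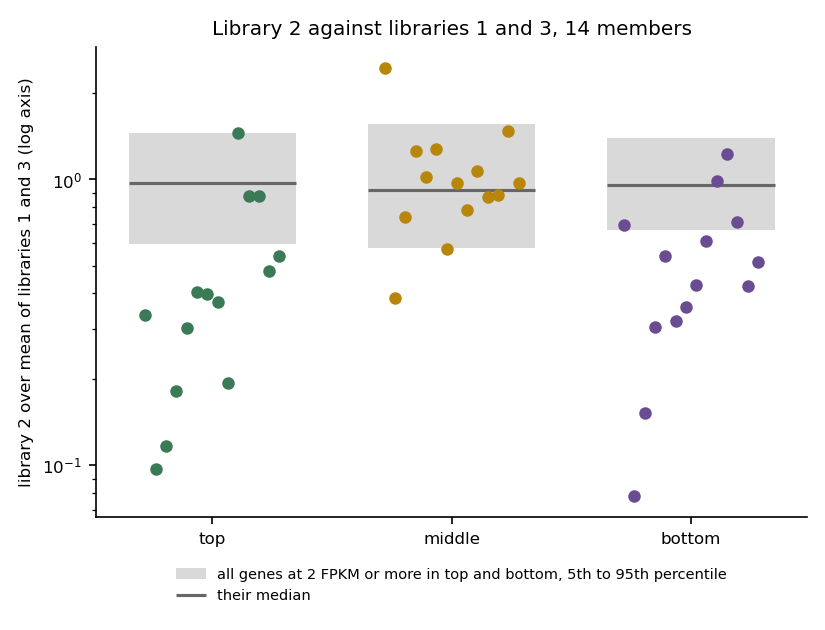
Level of library 2 divided by the mean of libraries 1 and 3 of the same position for each of the 14 genes (points, log axis, from left to right in falling order of the ratio used by the rule); grey bands give the 5th to 95th percentile and grey lines the median of the same ratio over 33987 genes. The points of the top and bottom fall largely below the bands, down to 0.0974 and 0.0784, while those of the middle spread around the median of 0.918.

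The 14 identifiers are split evenly, with 7 of letter A, 7 of letter G and 0 of the class Un. In the 33987 genes, 49.8% had letter A and 48.7% letter G. The 14 genes hold 6 number codes, and in 5 of these codes (4, 5, 7, 10 and 19) both letters are present. Thus 13 of the 14 genes share their number code with at least 1 of the other letter, the exception being Pop_G15G034160. This is a description of the identifiers, and no test was made of it. The same count was not made for other sets of genes, so nothing is read from it. Their implied lengths, with a median of 851 bases and a range of 229 to 1833, were short beside the median of 1547 bases over the 33987 genes.

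Code 4 held the most of the 14 genes, with Pop_A04G070603, Pop_A04G070754, Pop_G04G060294 and Pop_G04G060295. All but Pop_G04G060294 had the same implied length of 283 bases, which 41 of the 52436 genes tested share. Of these 41 genes, 8 have code 4, and the share of code 4 among all genes was not counted. In 7 of the 41, every middle library was below every end library, against 1.35% of the 63116 rows with a count. The rule itself gave this to 3 of the 7. Pop_A04G070743 and Pop_A04G070765, which are among the adjacent rows described below, are also of this length and pattern. Nothing is therefore read from the 7 of the 41. Reads shared between near-identical copies could not be examined without sequences, so genes of equal length and like values are uncertain as separate measurements.

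The rows next to the 14 genes in the deposited table were examined up to 3 rows away on each side, within the same letter and code. Of the 68 such rows with a count, 7 (10.3%) had every middle library below every end library, against 1.35% of the 63116 rows with a count in the whole table. Whether the order of rows follows the genome is not given in the sources used here. Of the 7 rows, 5 were of letter A and code 4. In Pop_A04G070614, Pop_A04G070625, Pop_A04G070776 and Pop_G05G073589 the lowest end library was at only 0.092 to 0.432 FPKM. Their middle libraries were at 0 to 0.065 FPKM, so their pattern rests on values near 0. Pop_A10G069072 was at 3.306 to 3.901 FPKM in the middle, with a lowest end library of 3.995 FPKM. Pop_A04G070743, next to Pop_A04G070754, had 23.1, 4.61 and 28.9 FPKM at the top, 1.17, 1.43 and 3.24 at mid-stem, and 35.8, 14.0 and 25.02 at the bottom, and missed the rule with a ratio of 1.42. Pop_A04G070765, on the other side, had 6.12, 1.22 and 7.56 FPKM, then 0.26, 0.32 and 0.68, then 10.00, 4.43 and 9.29, and missed the floor. In both neighbours top library 2 was again the lowest top library and bottom library 2 the lowest bottom library. Both also have the implied length of 283 bases of Pop_A04G070754, which lies between them. They are therefore uncertain as separate measurements, and the 10.3% is not a share of independent rows.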

How the data were processed

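RNA from 9 stem libraries was sequenced as paired-end reads after oligo(dT) selection, per the labels' protocols. The submitters' processing notes name Trimmomatic 0.36 and HISAT2; what version of the aligner, which counting program, build, annotation and strand setting were used is not given in the sources used here. Counts in the table the authors deposited are whole numbers, 0 of them odd, and the authors' FPKM values, deposited beside them, are above 0 in the same entries. Sample titles carry the column codes, which gave each column its library and left 0 columns over.

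The 14 genes and the tests were chosen with earlier results of these data known. The rule was applied to the FPKM values. edgeR 4.0.16 (R 4.3.3) was run on the counts as deposited, after filterByExpr (at least 10 counts, at least 15 in total) and TMM scaling, in 1 quasi-likelihood fit of position to all 9 libraries. Benjamini-Hochberg adjustment covered all 52436 genes tested. Standard errors are the fold change divided by the square root of F. DESeq2 1.42.0, limma 3.58.1 on log2(FPKM + 1) and log2(FPKM + 0.1), other scalings, no filter, a replicate block and left-out libraries were alternatives. The code was tested on simulated counts. The rule for genes reported in detail took the 2 deepest dips, the 2 most abundant genes, the called changes between top and bottom, and the genes nearest the threshold; the rest of the 14 were described after their values were seen, as were the library 2 pattern, the number codes, the lengths and the adjacent rows. Same-numbered top and middle libraries deviated from their position means together over all genes (r = 0.27, 0.12 and 0.112), against -0.188 to 0.038 for different numbers. Each was above 0.1, but the planned criterion asked for this in every same-numbered pair. Pairs with the bottom libraries did not all reach it (r = -0.156 for top and bottom libraries 2), so the planned criterion was not met. The link between top and middle comes from the data, not from the labels. Libraries of 1 position differed beyond sampling noise (chi-square per degree of freedom 22.7 to 55.9), so all were kept. Intervals cover counting error only.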

Additional observations from a re-analysis of the deposited data

How the results depend on the processing

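The number of genes meeting the rule was 25 when the required margin over the middle was 25% in place of 50%, 7 at a fold of 2 and 7 at a floor of 5 FPKM. It was 20 at a floor of 1 FPKM, 14 after TMM rescaling, 13 after rescaling by DESeq2's size factors and 14 to 35 with 1 library left out. Members called between top and bottom numbered 1 in limma on log2(FPKM + 1) and 1 on log2(FPKM + 0.1), where 12.7% and 12.9% of all genes were called lower, and 0 to 2 with libraries left out. With 1 library out, 8.3% to 15.5% of all genes were called lower in that comparison, and with 1 replicate number out 2.96% to 10.2%. Members called between middle and top numbered 0 to 14 with libraries left out, where 0.219% to 9.26% of all genes were called lower. Between middle and bottom they numbered 13 in DESeq2, where 0.213% of genes were called higher, and 0 to 7 with libraries left out, where 0% to 0.0319% were. Both contrasts with the middle were used by the rule, so their counts are a description. The causes of these moves were not tested, except that leaving libraries out leaves fewer samples. With libraries left out, the uncalled log2 fold change of bottom over top ranged from -0.37 to 0.54 in Pop_A04G070603 and from -0.79 to 0.28 in Pop_G05G073586, so its sign depends on single libraries.

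With the replicate number as a block, 2 members were called between bottom and top, where 11.5% of all genes were called higher and 14.1% lower. Between middle and top 13 were called lower, where 9.25% of all genes were. Between bottom and middle 6 were called higher, 5 of them among the 6 called without the block, where 0.0286% of all genes were. The rule used both contrasts with the middle, so nothing is read from their counts. Deviations of same-numbered bottom libraries correlated by -0.156 to 0.126 with the top ones and by 0 to 0.055 with the middle ones over all genes. The planned criterion of over 0.1 in every same-numbered pair was therefore not met, although top and middle alone reached it. Over the 14 genes alone, top and bottom libraries correlated by 0.193 to 0.812 with the same number and by -0.887 to 0.79 with different numbers.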

Other observations

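Lowering the floor of the rule from 2 to 1 FPKM added 6 genes. The deepest dip among them was that of Pop_G17G081534, with 16.2, 2.10 and 9.46 FPKM at the top, 0, 0 and 0.14 FPKM at mid-stem, and 7.98, 1.18 and 6.43 FPKM at the bottom. Its ratio of the lowest end library to the highest middle library was 8.65, and library 2 was again the lowest at both ends. Pop_G08G058383 had 6.99, 2.22 and 15.4 FPKM at the top, 0.15, 0.38 and 0.50 at mid-stem, and 4.78, 1.30 and 2.05 at the bottom, a ratio of 2.59, with library 2 lowest at both ends too. Library 2 was also lowest at both ends in Pop_A04G070765 and Pop_A12G073690, but at neither end in Pop_A15G084330 and Pop_G04G059457. The genes given with their levels were picked after their values were seen.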
